A study of Mus musculus with 10 samples.

Results

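Core clock genes were described in the terminal ileum of mice that had been put through repeated mild social defeat and of unstressed controls. The set was fixed by name and held 10 genes, Arntl, Clock, Npas2, Per1, Per2, Per3, Cry1, Cry2, Nr1d1 and Dbp. Their members were the probe sets whose only gene symbol in the platform annotation was a name of this set, which gave 23 of the 45101 probe sets on the array. Where a gene had several, the probe set with the highest average level in these 10 mice stood for it. All 10 genes lay above the floor of 4.15 on the log2 scale, below which the lowest 40% of probe sets were left out, and so were among the 13666 genes tested.

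The animals were male C57BL/6JJmsSlc mice, an inbred strain, aged 7 weeks, housed alone and fed the purified AIN-93G diet. Lights came on at 8 h in a light-dark cycle with 12 h of light. In the 5 stressed mice, bouts with an aggressive resident ICR male took place between 14 and 16 h, and the time of physical contact went down from 5 min on the first day by 0.5 min a day to 0.5 min on day 10. The other 5 mice were unstressed controls of the same strain. All mice fasted for 3 h before the lower small intestine was taken, and RNA of each mouse went onto 1 array. The hour at which each mouse gave its tissue is not given in the sources used here. The tissue was whole intestine, so fewer cells of a type and less RNA per cell cannot be told apart.

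In the molecular clock, the activators Arntl (also called Bmal1) and Clock, or Npas2 in the place of Clock, bind E-boxes and switch on the Per and Cry genes, whose proteins return to the nucleus and block the activators. A second loop runs through Nr1d1, which encodes the repressor Rev-erb alpha and holds down Arntl and Npas2, and Dbp is an output gene that binds D-boxes. In peripheral organs such as the intestine, Dbp, Nr1d1 and Per genes peak at a phase of the day opposite to that of Arntl and Npas2, with Cry1 late among the repressors, and feeding time is known to set this rhythm.

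Promoter sequence was searched for the motifs of the loop. It is printed for Per3, Cry1, Nr1d1 and Arntl, whose levels correlated from mouse to mouse with those of other members. It is also printed for Per1, whose level correlated with that of no other member but which carries the E-box. Dbp, Npas2 and Cry2, whose levels also correlated with those of other members, are not printed. RefSeq promoter windows on the GRCm38.p6 build, each from 250 bases before to 50 bases after an annotated start, were found for 9 of the 10 genes. These 9 genes had 13 windows in all, and no window was used for Per2. Capitals mark the matched motif, which is a D-box in Per3, an E-box or an E′-box in Cry1 and Nr1d1, an E-box in Per1 and the core of the binding site of Ror and Rev-erb receptors in Arntl. The run AACGTG is the E′-box CACGTT read on the opposite strand. The first 4 sequences are the 250 bases upstream of an annotated start. That of Per1 comes from 1 of its 2 windows and lies inside the gene, which spans 69095108 to 69109965. That of Arntl is a stretch of 30 bases around its match, downstream of its second annotated start.
Per3, chr4:151044666-151044915, minus strand: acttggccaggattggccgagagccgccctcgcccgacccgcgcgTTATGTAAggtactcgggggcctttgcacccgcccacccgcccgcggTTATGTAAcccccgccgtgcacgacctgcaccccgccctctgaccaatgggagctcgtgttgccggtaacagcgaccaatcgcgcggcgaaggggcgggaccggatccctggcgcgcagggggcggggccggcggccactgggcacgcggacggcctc
Cry1, chr10:85185055-85185304, minus strand: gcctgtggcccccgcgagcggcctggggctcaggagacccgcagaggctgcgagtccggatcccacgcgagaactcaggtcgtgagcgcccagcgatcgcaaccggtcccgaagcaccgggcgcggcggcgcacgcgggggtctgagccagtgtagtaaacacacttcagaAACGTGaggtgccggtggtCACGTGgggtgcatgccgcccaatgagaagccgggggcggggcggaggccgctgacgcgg
Nr1d1, chr11:98775378-98775627, minus strand: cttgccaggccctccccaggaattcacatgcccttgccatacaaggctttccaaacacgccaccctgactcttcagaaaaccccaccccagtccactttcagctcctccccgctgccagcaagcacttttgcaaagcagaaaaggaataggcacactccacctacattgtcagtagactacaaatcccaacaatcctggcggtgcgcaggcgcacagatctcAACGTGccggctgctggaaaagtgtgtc
Per1, chr11:69098699-69098948, plus strand: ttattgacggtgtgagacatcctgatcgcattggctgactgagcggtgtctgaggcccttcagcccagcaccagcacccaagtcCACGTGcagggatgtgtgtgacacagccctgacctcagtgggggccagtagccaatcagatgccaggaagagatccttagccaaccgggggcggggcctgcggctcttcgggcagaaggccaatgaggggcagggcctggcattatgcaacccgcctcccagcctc
Arntl, chr7:113207530-113207559, plus strand: aaggcagaaagtAGGTCAgggacggaggtg

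The motifs were searched on both strands as exact letters. The D-box, searched as TTATGTAA and TTACGTAA, was present in 1.06% of the 32851 windows of all genes, and among the clock genes Per3 alone carried it, with 2 copies whose first bases lay at -205 and -158 from the start. The E-box CACGTG was present in 7.15% of all windows. It lay at -60 in Cry1 and at -166 in Per1, counted from the start whose upstream sequence is printed. The E′-box CACGTT, found in 4.68% of all windows, lay at -79 in Cry1, -166 in Cry2 and -28 in Nr1d1. The receptor core AGGTCA was found in 16.3% of all windows, and in those of Arntl, Clock and Per1 among the members. The cyclic AMP response element TGACGTCA, in 1.79% of all windows, and the palindromic glucocorticoid receptor element, in 0.00913%, were found in 0 of the 13 windows of clock genes. The windows of Dbp and Npas2 held none of these motifs. A match is a string of letters in the window searched and was not tested for binding.

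The array of control mouse 1 stood apart. It correlated with the other arrays at 0.918 to 0.947 over all genes, and the other 9 correlated with each other at 0.975 to 0.995. Its 9 ileal epithelial markers, all above the floor, had a summed level of 12.28 (log2), and the other 9 mice had 15.42 to 15.67. Fabp6, the ileal bile acid binding protein, was at 7.88 in that mouse and at 13.88 or more in the others. The summed level of the 10 large intestine markers that could be matched, of which 3 lay above the floor, was 14.20 in control mouse 1, 13.36 in stressed mouse 4 and 7.19 to 8.18 in the other 8. The summed level of 9 B cell markers was 8.64 in control mouse 5 and 6.79 to 7.52 elsewhere, and that of 4 exocrine pancreas markers was 8.45 in this mouse and 5.95 to 6.56 elsewhere. The log2 ratio of 3′ to 5′ signal of the control transcripts Actb and Gapdh was 1.13 in stressed mouse 1 and 0.45 to 0.70 in the others. Clock gene differences are therefore given for all 10 mice and without control mouse 1, and key counts also without the 3 mice whose markers departed most, namely control mice 1 and 5 and stressed mouse 4.

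Among the clock genes, Cry1 passed the test, at a lower level in stressed mice, and did so without control mouse 1 but not with all 10 mice. No other member passed in either comparison. The differences of Dbp, Per2, Per3 and Nr1d1 were positive (0.81, 0.50, 0.37 and 0.27 on the log2 scale with all mice), and those of Arntl and Npas2 were negative (-0.45 and -0.34). With all 10 mice, 0 of the 10 genes passed an adjusted p of 0.05 in limma (Benjamini-Hochberg, over all genes), where the background was 0% of all genes. At an unadjusted p under 0.05 it was 1 of 10, Cry1, where the background was 7.82%, and an exact permutation test of each gene gave 0 members after adjustment and 1 before it. Without control mouse 1, 1 of the 10 was called, Cry1, where the background was 0.798% in either direction and 0.534% in the lower direction. In this comparison 3 members were at an unadjusted p under 0.05, and 18.0% of all genes were. Marker genes of cell types were compared in the same 9 mice. Of the 9 ileal markers, 7 were higher in stressed mice and 2 were called, Cubn and Fgf15 (limma adjusted p of 0.0245 and 0.0347). All 3 B cell markers tested were lower, 2 of them at an unadjusted limma p under 0.05. All 5 enteric neuron markers tested were higher, 2 of them at an unadjusted limma p under 0.05. No smooth muscle, adipocyte or large intestine marker tested was at an unadjusted limma p under 0.05, and 1 exocrine pancreas marker was, on the lower side. Of the marker lists, only the ileal one held called genes. The summed level of the enteric neuron markers was 8.31 to 8.52 in controls 2 to 5 and 8.42 to 9.24 in stressed mice, and their part in the clock gene values was not tested. The direction was higher in 7 members and lower in 3 in both comparisons, with a median difference over the members of 0.11 with all mice and 0.24 without control mouse 1, and of 0.0031 and 0.025 over all genes tested.

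**Figure D1:**
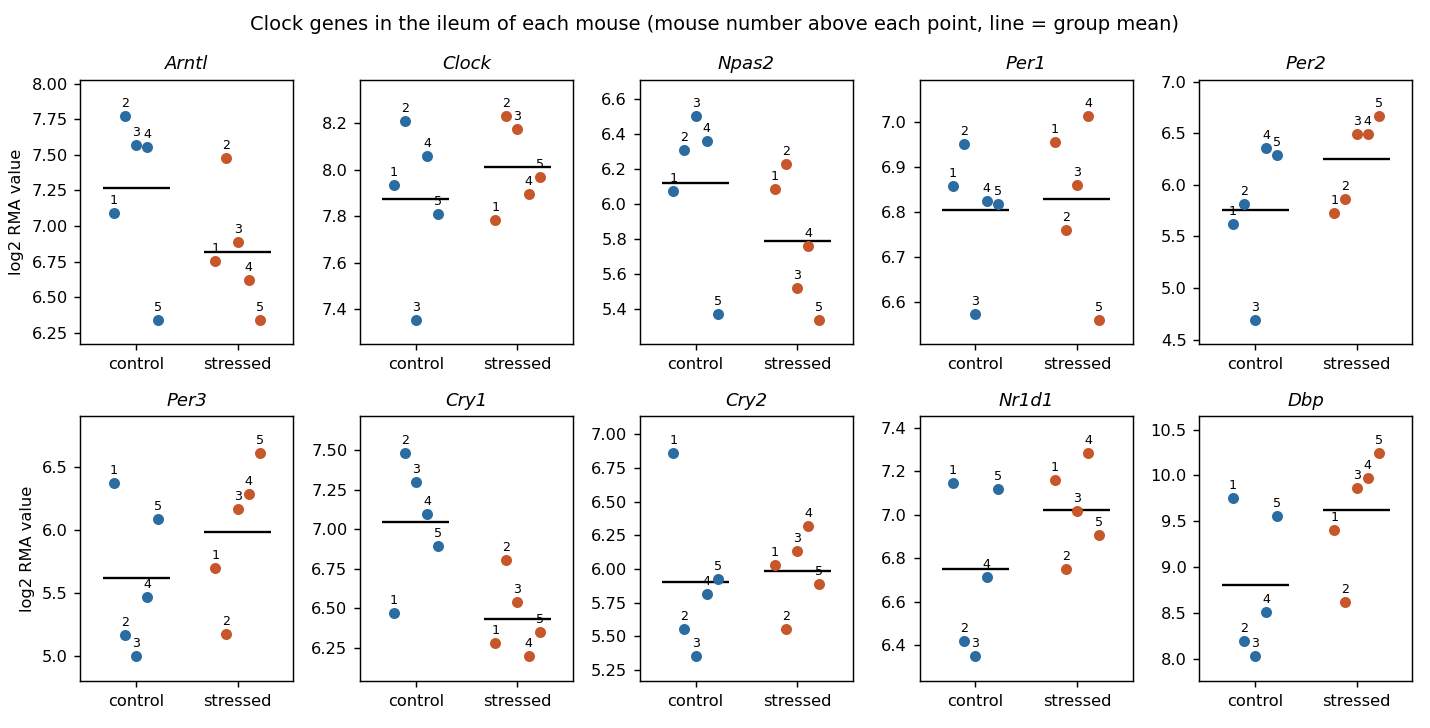
Log2 RMA value (vertical axis, 1 scale per gene) of the 10 clock genes in 5 control and 5 stressed mice. Each point is 1 mouse with its number, and the line is the group mean. Cry1 of controls 2 to 5 lies at 6.89 or above and that of the stressed mice at 6.80 or below, and in Dbp the controls 1 and 5 lie among the stressed mice.

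Cry1, which encodes cryptochrome 1, a strong repressor of the activator pair, was measured by 1 probe set. It was at 6.47, 7.48, 7.30, 7.10 and 6.89 in control mice 1 to 5 and at 6.28, 6.80, 6.54, 6.19 and 6.35 in stressed mice 1 to 5 on the log2 scale. Control mouse 1 was inside the range of the stressed mice, and the other 4 controls were all above it. The group means were 7.05 ± 0.39 (SD, n = 5) and 6.43 ± 0.24 (SD, n = 5), a difference of -0.61 (95% confidence interval -1.02 to -0.21, limma adjusted p = 0.425). A 2-sided exact permutation test of the gene alone gave p = 0.0238, where the smallest p that 252 assignments allow is 0.00794. Without control mouse 1 the control mean was 7.19 ± 0.25 (SD, n = 4) and the groups no longer overlapped, as in 7.24% of all genes. Cry1 then fell by 0.76 (SE 0.14, 95% confidence interval of the stressed minus control difference -1.07 to -0.45), a level 1.69-fold higher in controls, with an adjusted p = 0.0375 in limma. Over 20 other settings for these 9 mice the difference stayed between -0.86 and -0.65, and the adjusted p ran from 0.0175 to 0.203, with 8 of the 20 under 0.05. The large intestine score was the mean deviation of its 3 markers above the floor, Car1, Aqp8 and Fxyd4. With this score as a covariate the limma adjusted p of Cry1 was 0.108. In the 7 mice without control mice 1 and 5 and stressed mouse 4 it was 0.0728.

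Cry2, the sister repressor, lay on the higher side instead. Its values were 6.86, 5.56, 5.35, 5.82 and 5.92 in controls and 6.03, 5.56, 6.13, 6.32 and 5.89 in stressed mice. Control mouse 1 was the highest of all 10 mice, and the remaining values of both groups overlapped. The difference was 0.084 (95% confidence interval -0.47 to 0.64) with all mice and 0.32 (-0.017 to 0.66) without control mouse 1, with limma adjusted p of 0.957 and 0.301. Whether Cry1 and Cry2 differed from each other in their response was not tested.

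Dbp, a PAR bZIP factor that drives daily rhythms of detoxifying and metabolic genes, was the member with the widest spread. Its values were 9.75, 8.19, 8.03, 8.51 and 9.55 in control mice 1 to 5 and 9.41, 8.62, 9.86, 9.97 and 10.24 in stressed mice 1 to 5. Control mice 1 and 5 sat among the stressed mice, and stressed mouse 2 sat next to controls 2 to 4. The means were 8.81 ± 0.79 (SD, n = 5) and 9.62 ± 0.64 (SD, n = 5), with a difference of 0.81 (-0.043 to 1.67, limma adjusted p = 0.653, exact permutation p = 0.0952). Leaving out control mouse 1 gave a difference of 1.05 (0.29 to 1.81), a 2.07-fold higher level, at an unadjusted p = 0.0112 and an adjusted p = 0.157 in limma. Over the other settings for these 9 mice its adjusted p was never under 0.0659. A second Dbp probe set followed the first at r = 0.99 over the 10 mice and gave differences of 0.95 and 1.28.

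Nr1d1, the Rev-erb alpha repressor, was at 7.15, 6.42, 6.35, 6.71 and 7.12 in controls and at 7.16, 6.75, 7.02, 7.28 and 6.91 in stressed mice. Control mice 1 and 5 were again within the stressed range and controls 2 to 4 were below it. The difference was 0.27 (-0.11 to 0.65, adjusted p = 0.770 in limma) with all mice and 0.37 (0.028 to 0.72, adjusted p = 0.243) without control mouse 1.

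The activators Arntl and Npas2 had negative differences. Arntl was at 7.09, 7.77, 7.57, 7.55 and 6.34 in controls and at 6.75, 7.48, 6.89, 6.62 and 6.34 in stressed mice. Control mouse 5 was as low as the lowest stressed mouse, and stressed mouse 2 lay with the high controls. Npas2, which can take the place of Clock as partner of Arntl, was at 6.08, 6.31, 6.50, 6.36 and 5.37 in controls and at 6.09, 6.23, 5.52, 5.76 and 5.34 in stressed mice. Here too control mouse 5 was low, and stressed mice 1 and 2 were within the range of the other controls. The differences were -0.45 (-1.05 to 0.16) for Arntl and -0.34 (-0.84 to 0.17) for Npas2 with all mice, with adjusted p of 0.760 and 0.774 in limma, and -0.49 and -0.35 without control mouse 1. As the mean of both its probe sets, Arntl differed by -0.25 with all mice and -0.26 without control mouse 1. Leaving out control mouse 5 gave -0.68 for Arntl and -0.52 for Npas2, and -0.81 and -0.60 with control mouse 1 out as well, with limma adjusted p of 0.469, 0.528, 0.0893 and 0.130.

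Clock, the usual partner of Arntl, which is known for little daily change in many organs, was at 7.93, 8.21, 7.35, 8.06 and 7.81 in controls and at 7.79, 8.23, 8.18, 7.90 and 7.97 in stressed mice. Apart from the low control mouse 3, the values of both groups covered the same range. The difference was 0.14 (-0.20 to 0.48, limma adjusted p = 0.858).

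The Per genes, which encode the period repressors, were unlike each other. Per1 was at 6.86, 6.95, 6.57, 6.82 and 6.82 in controls and at 6.96, 6.76, 6.86, 7.01 and 6.56 in stressed mice. Its groups covered each other fully, with a difference of 0.025 (-0.20 to 0.25) whose sign turned under several settings. Per2 was at 5.62, 5.81, 4.69, 6.36 and 6.29 in controls and at 5.73, 5.87, 6.49, 6.49 and 6.67 in stressed mice. Control mouse 3 was far below all others, and stressed mice 3 to 5 were the highest 3. Per3 was at 6.38, 5.17, 5.00, 5.47 and 6.09 in controls and at 5.70, 5.17, 6.16, 6.29 and 6.61 in stressed mice, which is nearly the order of Dbp. The differences were 0.50 (-0.18 to 1.17) for Per2 and 0.37 (-0.32 to 1.06) for Per3 with all mice, and 0.46 and 0.56 without control mouse 1, with limma adjusted p between 0.323 and 0.813. As the mean of all their probe sets, Per2 and Per3 differed by 0.15 and 0.094 with all mice and by 0.13 and 0.15 without control mouse 1. Leaving out control mouse 3 gave Per2 a difference of 0.23, or 0.096 with control mouse 1 out as well, and gave Per3 a difference of 0.21.

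**Figure D2:**
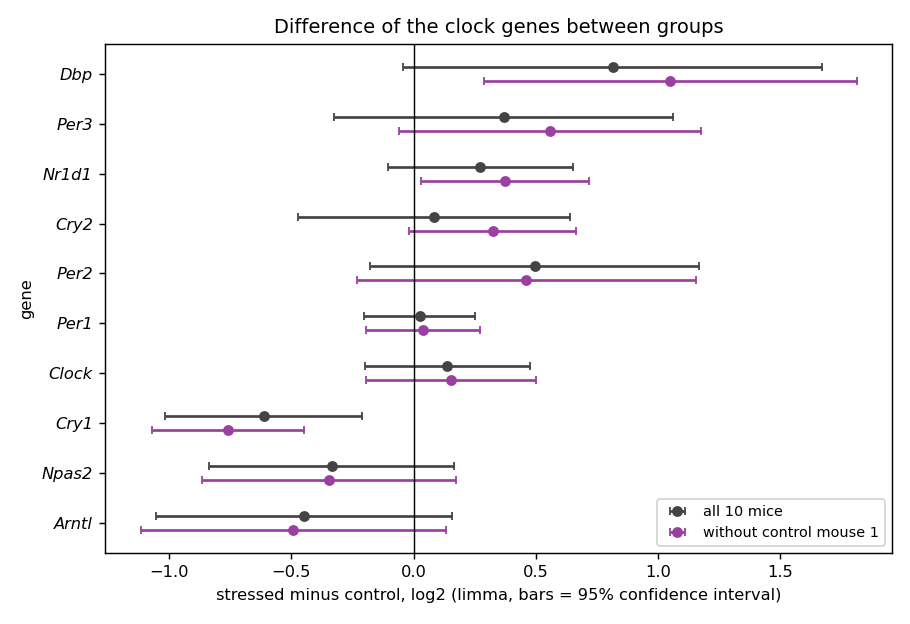
Stressed minus control difference (horizontal axis, log2) of each clock gene from limma, with all 10 mice and without control mouse 1, and bars for the 95% confidence interval. The interval lies below 0 for Cry1 in both comparisons and above 0 for Dbp and Nr1d1 without control mouse 1, and adjusted over all genes only Cry1 without control mouse 1 passed.

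Probe sets of the same gene did not always tell the same story. Of the 23 probe sets, 20 were above the floor, and Clock, Per2 and Per3 had 3 or more such probe sets each. The second Npas2 probe set followed the first at r = 0.70, and the other 3 Per3 probe sets above the floor at 0.61 to 0.78. Weaker agreement was found for the second Arntl probe set (r = 0.23), the other Clock probe sets (0.22 and 0.52) and those of Per2 (0.21 and 0.25). For Per2 the probe set with the lowest mean gave a difference of -0.13, opposite in sign to the representative. These other probe sets of Arntl and Per2 had means of 4.62 to 5.38, closer to the floor than the representatives.

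The spread from mouse to mouse was large for most of the clock genes, whatever the group. Between the lowest and the highest mouse, Dbp differed 4.66-fold, Per2 3.93-fold, Per3 3.06-fold, Cry2 2.85-fold, Arntl 2.69-fold, Cry1 2.44-fold and Npas2 2.24-fold. The SD of Dbp over the 10 mice was 0.80, and 1.62% of all genes tested had a larger one. For Per2, Per3, Arntl, Cry1, Cry2 and Npas2 the share of genes with a larger SD was 3.38% to 6.76%. Nr1d1 followed with 14.8% and Clock with 25.4%, whereas Per1 had an SD of 0.15, and 68.0% of genes varied more. Without control mouse 1 the share was 50.3% for Per1, 11.4% for Clock and 5.93% for Nr1d1. For Cry2 it was then 7.31%, and its SD was 0.31 against 0.43 with all mice. For Dbp, Per2, Per3, Arntl, Cry1 and Npas2 the share was 0.366% to 1.90%.

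Across mice, Dbp and Per3 varied with Nr1d1 and Cry2 and opposite to Arntl, Npas2 and Cry1. Of the 45 pairs of members, 17 correlated at an adjusted p under 0.05 over the 10 mice (Pearson, permutation test with 100000 resamples, adjusted over the 45 pairs), 8 with a positive and 9 with a negative r. Dbp and Per3 had 6 such partners each, Arntl and Nr1d1 had 5, Npas2 and Cry1 had 4, Cry2 had 3 and Per2 had 1. Clock and Per1 had 0 partners, and Cry2 had no partner with a negative r. With control mouse 1 left out, 21 pairs were called by the exact form of this test, and all 17 were among them. With each value taken as its deviation from its group mean, which removes the difference between stressed and control mice, 13 pairs were called, of which 12 were among the 17. The share of pairs called among other genes was not computed. Whether these counts are particular to clock genes was therefore not tested.

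**Figure D3:**
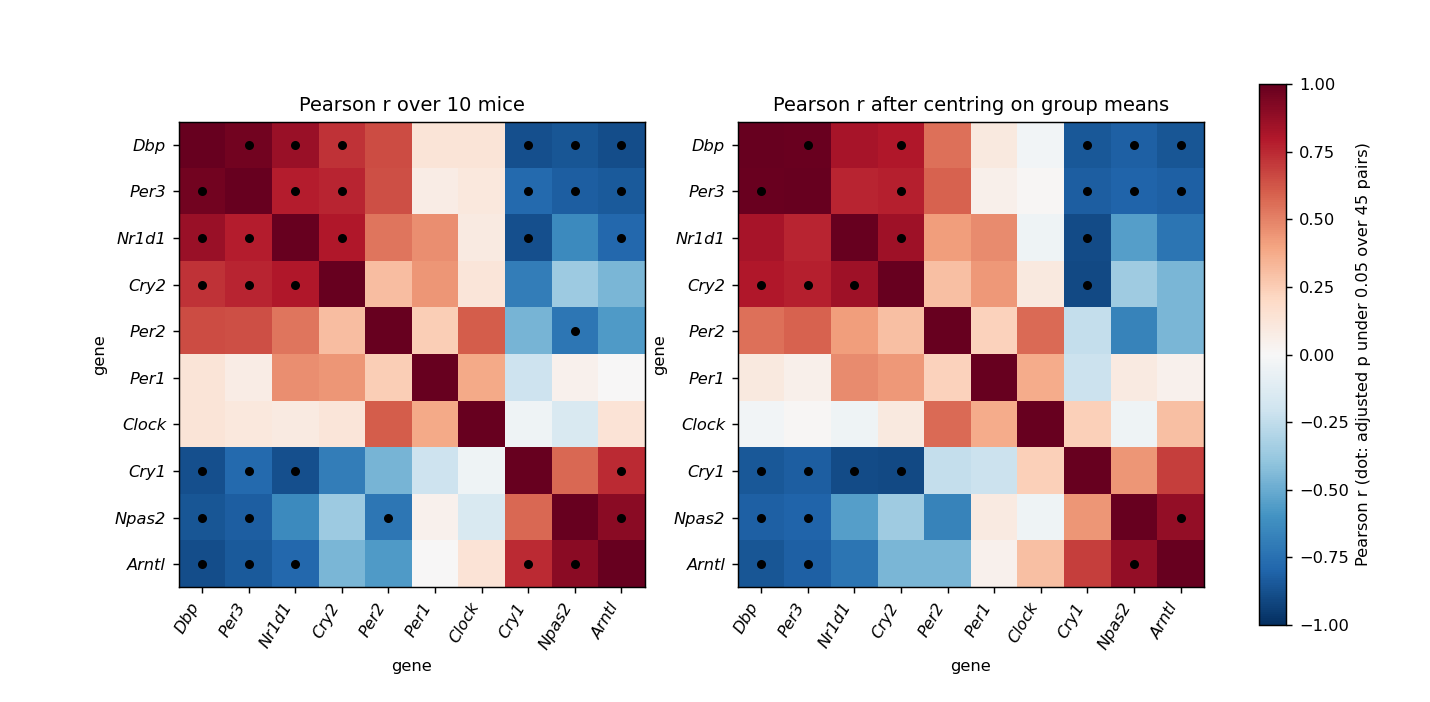
Pearson correlation of each pair of clock genes over 10 mice (left) and after subtracting the group means (right), with colour from -1 to 1 and a dot where the adjusted p over 45 pairs was under 0.05. Dbp, Per3, Nr1d1 and Cry2 form a red block with dots on the left, where the blue of Dbp and Per3 with Cry1, Npas2 and Arntl carries dots too, and 17 pairs were called on the left and 13 on the right.

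Per3 and Dbp were the tightest pair, with r = 0.97 (p = 1e-05, the smallest that the 100000 resamples can give, adjusted p = 0.00045) and a Spearman rho of 0.95 (permutation p = 0.00013, adjusted p = 0.00585). The r was 0.99 after centring on group means and 0.95 without the 2 mice farthest from the median of Per3. The activator pair Arntl and Npas2 gave r = 0.90 (permutation p = 0.00101, adjusted p = 0.0125) and rho = 0.90 (permutation p = 0.00094, adjusted p = 0.0106). Arntl was lower where Dbp was higher, at r = -0.89 (permutation p = 0.00174, adjusted p = 0.0131) and rho = -0.83 (permutation p = 0.00414, adjusted p = 0.0266). For Npas2 and Dbp, r was -0.85 (permutation p = 0.00398, adjusted p = 0.0235) and rho was -0.90 (permutation p = 0.00075, adjusted p = 0.0106). Cry1 and Dbp had r = -0.88 (permutation p = 0.00109, adjusted p = 0.0125) and rho = -0.81 (permutation p = 0.00734, adjusted p = 0.0367). Nr1d1 and Dbp had r = 0.86 (permutation p = 0.00173, adjusted p = 0.0131), while their rho of 0.71 did not pass (permutation p = 0.0262, adjusted p = 0.0738).

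In a further setting each pair lost the 2 mice farthest from the median of its first gene, in the order of the member list. In pairs with Dbp this was the other gene, so the 8 mice kept differed between pairs. Of the 45 pairs, 2 stayed under an adjusted p of 0.05, Per3 with Dbp and Npas2 with Dbp (r = -0.88, adjusted p = 0.0380, exact permutation). Arntl with Dbp was then at -0.82 (adjusted p = 0.122, exact permutation), Cry1 with Dbp at -0.76 (adjusted p = 0.137, exact permutation) and Nr1d1 with Dbp at 0.67 (adjusted p = 0.196, exact permutation). Each had the same sign over its 8 mice but was no longer called. The Dbp values had their widest gap, 0.79, between 8.62 and 9.41. Below it lay control mice 2, 3 and 4 and stressed mouse 2, and above it the other 6 mice, which included control mice 1 and 5. Over the 6 mice above the gap, r with Dbp was 0.89 for Per3 (exact permutation p = 0.0208, adjusted p = 0.188 over 9 genes, rho 0.83) and 0.71 for Per2. It was -0.25 for Arntl, -0.49 for Npas2, -0.35 for Cry1, -0.032 for Cry2 and -0.47 for Nr1d1. Over the 10 mice Nr1d1 and Cry2 had a positive r with Dbp (0.86 and 0.72). The 6 mice span only 9.41 to 10.24 of the Dbp range. A smaller r there, or one of the other sign, therefore does not show that a relation is absent or reversed among them. The 4 mice below the gap were too few for a correlation.

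**Figure D4:**
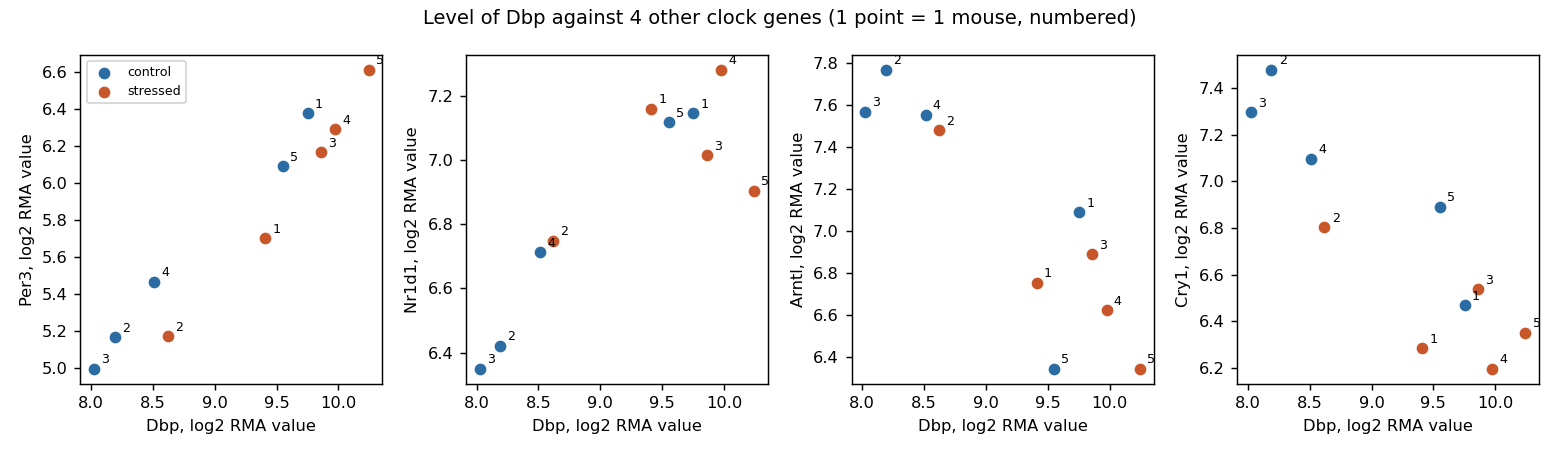
Log2 RMA value of Dbp (horizontal axis) against that of Per3, Nr1d1, Arntl and Cry1 (vertical axes), 1 point per mouse with its number, control and stressed mice in separate colours. Per3 climbs with Dbp along the whole axis. Nr1d1 and Arntl separate the 4 mice with Dbp at 8.62 or below from the 6 mice at 9.41 or above, and Cry1 does not, since control mouse 5 (6.89) lies above stressed mouse 2 (6.80).

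Mice of the same group differed in these genes. Control mouse 5 had Dbp at 9.55, Arntl at 6.34 and Npas2 at 5.37, all within the stressed range or at its edge, but its Cry1 of 6.89 was above that of every stressed mouse. Stressed mouse 2 had Dbp at 8.62 and Arntl at 7.48, near controls 2 to 4, but its Cry1 of 6.80 was below that of controls 2 to 5. In control mouse 5 the B cell and pancreas markers were also the highest of all mice. The part of these markers, of the large intestine markers and of the 3′ to 5′ ratio in the clock gene pattern was not tested beyond the settings given. Without control mice 1 and 5 and stressed mouse 4, 8 of the 45 pairs were called, all of them among the 17. In these 7 mice 6 members had an unadjusted limma p under 0.05, where the background was 13.6% of all genes, and 0 had an adjusted p under 0.05, where it was 0.0366%.

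The regulators of the second loop and the relatives of Dbp were compared next, and none passed the test. Of 11 listed genes, 9 were tested, and 6 were higher and 3 lower in stressed mice, 0 of them called with all mice or without control mouse 1. With all mice 1 gene, Nfil3, was at an unadjusted limma p under 0.05, where the background was 7.82% of all genes. Without control mouse 1 it was 6 genes, where the background was 18.0%, with Nr1d2, Rora, Tef and Bhlhe40 higher and Nfil3 and Bhlhe41 lower. The list's median difference was 0.19 with all mice and 0.39 without control mouse 1. Nfil3, which encodes E4BP4, the repressor that competes with Dbp for D-boxes, was at 5.83, 7.03, 7.13, 6.67 and 6.02 in controls and at 5.84, 6.17, 5.26, 5.27 and 4.63 in stressed mice. The 3 controls with low Dbp had the highest Nfil3, and stressed mouse 5 had the lowest. Its difference was -1.10 ± 0.32 (SE, adjusted p = 0.408 in limma) with all mice and -1.28 ± 0.30 (SE, adjusted p = 0.0648) without control mouse 1. Tef, a relative of Dbp that binds the same sites, differed by 0.48 (adjusted p = 0.699 in limma), Rora, the activator that competes with Rev-erb proteins, by 0.35 (adjusted p = 0.742), and Bhlhe41, an E-box repressor, by -0.19 (adjusted p = 0.772). Without control mouse 1, Rora did not overlap between groups, as in 7.24% of all genes. It was at 5.81 to 6.29 in controls and 6.34 to 6.91 in stressed mice, and its limma adjusted p was 0.0972.

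**Figure D5:**
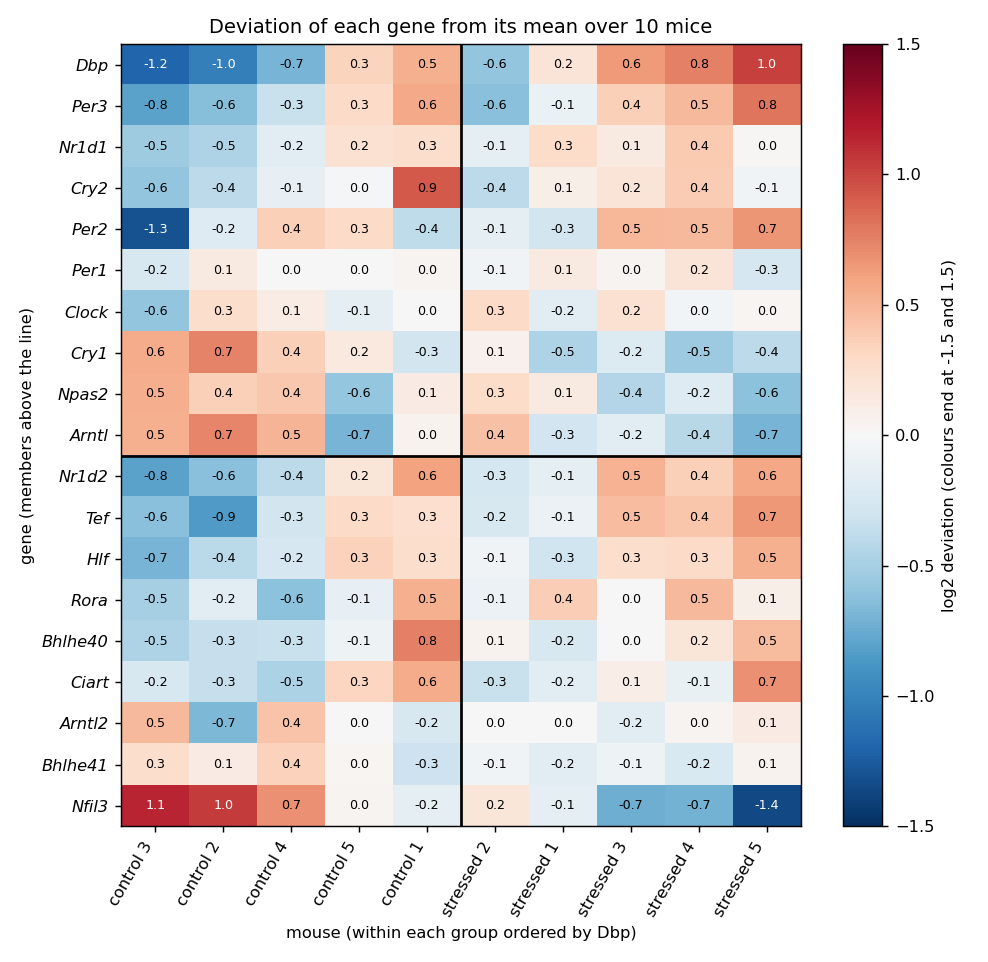
Deviation of each gene (rows, log2) from its mean over 10 mice (columns, within each group ordered by Dbp), clock genes above the line and second loop and output regulators below it. Nr1d2, Tef and Hlf follow Dbp and Per3 from blue to red within both groups, and Nfil3 runs the other way with Arntl, Npas2 and Cry1.

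Enzymes that modify clock proteins were tested for 14 of 16 listed genes. With all mice 9 were higher and 5 lower, 0 called and 0 at an unadjusted limma p under 0.05. Without control mouse 1, 2 were at an unadjusted limma p under 0.05, Csnk1d and Prkaa2, where 18.0% of all genes were. Csnk1d, the kinase that marks Per proteins, was at 10.00 to 10.18 in controls and 10.22 to 10.29 in stressed mice. The groups did not overlap, as in 2.28% of all genes, but the difference was 0.14 (adjusted p = 0.641 in limma). Gsk3b, another kinase of clock proteins, differed by 0.13, Ppp2r1a, a scaffold of phosphatase 2A, by -0.19 and Fbxl21, a ubiquitin ligase subunit that acts on Cry proteins, by 0.28, each with a limma adjusted p over 0.76. Genes known as rhythmic outputs in many tissues were tested for 8 of 10, with 5 higher and 3 lower and 0 called. Lonrf3 and Usp2, a deubiquitinase, both differed by 0.39 (limma unadjusted p of 0.0320 and 0.0394, adjusted p of 0.596 and 0.608), and without control mouse 1 neither was at an unadjusted p under 0.05. In that list Tspan4 differed by 0.22 and Tsc22d3 by -0.20.

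Genes of inputs to the clock were compared in the same way. Glucocorticoid responsive genes, all 8 of which were tested, were divided into 4 higher and 4 lower, with 0 called and 0 at an unadjusted limma p under 0.05 with all mice or without control mouse 1, and a median difference of -0.023. Nr3c1, the glucocorticoid receptor, differed by 0.097 (-0.11 to 0.30), Sgk1 by 0.31 (-0.49 to 1.11) and Ddit4 by -0.34 (-0.78 to 0.10). Of the immediate early genes, which answer signals within a short time, 8 of 10 were tested, with 6 higher and 2 lower and 0 called. Fos was at 8.94, 9.18, 9.28, 9.91 and 9.35 in controls and at 9.75, 10.30, 10.02, 10.15 and 10.46 in stressed mice, where control mouse 4 alone reached into the stressed range. Its difference was 0.80 ± 0.18 (SE, limma unadjusted p = 0.000932, adjusted p = 0.303). Jun, the partner of Fos, lay the other way, with a difference of -0.42 ± 0.13 (SE, adjusted p = 0.429 in limma). Ier3 differed by 0.15 and Egr1 by 0.48, with limma adjusted p of 0.684 and 0.770. In the 9 mice without control mouse 1, the list had 4 members at an unadjusted limma p under 0.05, where 18.0% of all genes were. Fos and Egr1 were on the higher and Jun and Atf3 on the lower side. Of the list 0 were called, with Fos at a limma adjusted p of 0.0677.

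The genes tested outside the 10 members were ranked by their r to Dbp and to Arntl, with predicted and clone-named transcripts passed over. Those closest to Dbp over the 10 mice included its own relatives. The 5 ranked genes with the highest Pearson r to Dbp were Tef (0.96), Nr1d2 (0.96), Spata13 (0.95), Slc25a4 (0.94), a mitochondrial ADP/ATP carrier, and Abcb1a (0.94), a drug efflux pump of the epithelium. In the 9 mice without control mouse 1 these stood at 0.94 to 0.97. The 5 with the lowest r were Tcirg1 (-0.98), a subunit of the vacuolar proton pump, Nfil3 (-0.95), Smco4 (-0.94), Lama1 (-0.93) and Baiap2l1 (-0.92). Tcirg1 spanned 6.52 to 6.99 over the mice and Abcb1a 10.09 to 12.22. For Arntl the highest were Ptger4 (0.92), a prostaglandin E receptor, Smco4 (0.92), Tmem50b (0.90), Tcirg1 (0.88) and Tmem252 (0.88), and the lowest were Tspan4 (-0.93), Cys1 (-0.90), Ccbe1 (-0.88), Cacng7 (-0.87) and Tef (-0.87). These r values come from the same 10 arrays, picked as the extremes of all genes ranked, and are a description.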

How the data were processed

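Per the submitters' processing notes, the authors made the values with RMA, which corrects background, quantile-normalizes and summarises probe sets, and deposited them on a log scale. The log2 base was taken from the range of the deposited values, 1.22 to 14.37, and the version of RMA is not given in the sources used here. RMA gives all arrays a like distribution, understates changes near background, and keeps no read depth, so the number of arrays limits precision.

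Of the 45101 probe sets, 34945 had 1 gene symbol, 932 several, 9160 none, and 64 were controls. Groups came from sample titles, and p-values measure the spread between single mice. The 2 groups were tested gene by gene with limma 3.58.1 (lmFit, eBayes; R 4.3.3), with Benjamini-Hochberg adjustment over 13666 genes. Correlations used Python 3.11.15. The scripts were tested on simulated data.

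All members are named, with up to 4 genes by smallest p of each of 5 related lists and the 5 ranked genes most and least like Dbp and Arntl. Members and predicted or clone-named transcripts were left out of that ranking. Members, lists and the separate treatment of control mouse 1 were chosen with earlier results of these data known. Some listed genes were not analysed here.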

Additional observations from a re-analysis of the deposited data

Results flagged for a closer look

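Dixon's test was applied to the control and the stressed mice for each of 43 genes, 86 groups in all, in which chance flags about 1 in 20. It marked 2 values. Ppp2r1a, the scaffold subunit of phosphatase 2A, was at 12.19 in control mouse 1, and the other controls were at 11.45 to 11.66. Tspan4, which had the lowest correlation to Arntl among the genes ranked, was at 7.35 in control mouse 5, and the other controls were at 6.41 to 6.59. No value of a clock gene was marked by this test in either group.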

How the results depend on the processing

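With all 10 mice the count of clock genes called was 0 in 20 of 21 other settings and 1 without control mouse 1. Without that mouse, the count of 1 became 0 with array weights, with every probe set on its own, with the large intestine score as a covariate, with the exact permutation test and in the 7 mice without control mice 1 and 5 and stressed mouse 4 (chosen after seeing the data), and leaving out 1 further mouse gave 0 to 1. Over all genes, the count with 10 mice was 0, and it became 41 with array weights, 2 with the mean of all probe sets, 2 after quantile normalization again, 5 with the large intestine score, 5 in the 7 mice and 0 to 109 with 1 mouse left out, of which 109 was without control mouse 1 and 2 without stressed mouse 2. The count of 109 without control mouse 1 became 169 with trend and robust moderation, 64 with every probe set, 187 after quantile normalization again, 5 with the large intestine score, 0 with the exact permutation test, 5 in the 7 mice and 6 to 154 with 1 further mouse left out. The exact test cannot give a p under 0.00794 with 10 or 9 mice. Its smallest adjusted p over all genes was 0.349 and 0.174, so its counts of 0 cannot decide whether a call was lost.

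Directions of 3 genes near 0 turned. Per1 was at -0.0075 with array weights, -0.017 after quantile normalization again and -0.033 to 0.092 with 1 mouse left out, and without control mouse 1 at -0.0054, -0.032, -0.026 with the large intestine score and -0.035 to 0.11. Cry2 ran from -0.054 to 0.33 with mice left out, and Clock without control mouse 1 from -0.016 to 0.27. The other 7 members kept their direction in all settings, each read from its representative probe set or the mean of all its probe sets. Taken alone, the Per2 probe set with the lowest mean was at -0.13 with all mice and -0.21 without control mouse 1. The 17 correlated pairs became 9 with Spearman, 10 with the mean of all probe sets, 2 without the farthest mice, 8 in the 7 mice and 5 to 21 with 1 mouse left out, the 5 being without control mouse 3. The 21 pairs without control mouse 1 became 8 after centring, 12 with the mean of all probe sets, 4 without the farthest mice, 8 in the 7 mice and 7 to 21 with 1 further mouse left out. No r of a called pair changed sign in these settings, which do not include the 6 mice above the Dbp gap. There Nr1d1 with Dbp was at -0.47 and Cry2 with Dbp at -0.032. The cause of these changes was not tested.

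The replicate numbers were taken only as names of mice. The deviations of same-numbered mice over all genes correlated at -0.30 to 0.28, and the own number was the best match in 1 of 5. Whether same-numbered mice shared a day or hour of collection was not tested, and these few correlations cannot decide it. With the replicate number as a block, 0 genes were called with 10 mice, 3 of 10 members and 1011 of 13666 genes were at an unadjusted limma p under 0.05 and the smallest adjusted p of a member was 0.275. Without control mouse 1 the block left 95 genes called, 1 of them a clock gene, Cry1 (limma adjusted p = 0.0213). In that fit 6 of 10 members and 2158 of 13666 genes were at an unadjusted limma p under 0.05. The filters on low values kept each count of clock genes called.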
